A study of Mus musculus with 6 samples.

Results

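Rps6ka2 and Scnn1a are 2 of the 57180 mouse genes in a table of fragment counts from sorted liver NK cells. They were found by their symbols, and each symbol stood on a single line of the table. Both had been picked because they were among the genes with the lowest p-values between CD36+ NK and CD36- NK cells. Their levels and fold changes in that comparison are therefore given as a description, with no test.

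Male C57BL/6J mice of 6 to 8 weeks received CCl4 by intraperitoneal injection (2.5 ml/kg of a 20% solution in olive oil, 2 injections per week for 4 weeks), and livers were taken 48 h after the last injection. Liver NK cells, gated as CD3- NK1.1+, were then separated by surface CD36 into CD36+ NK and CD36- NK cells, with 3 libraries in each group. All mice were wild type and all had received CCl4, so no library came from a healthy liver. The sources used here do not say whether animals were pooled or whether the libraries of a group came from separate mice, so the p-values measure the spread between these libraries only.

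Rps6ka2 encodes a ribosomal S6 kinase of the RSK family. These serine/threonine kinases lie at the end of the Ras, RAF, MEK and ERK cascade: ERK and the kinase PDK1 switch them on, and they phosphorylate transcription factors, translation factors and regulators of cell survival. Scnn1a encodes the alpha subunit of the epithelial sodium channel ENaC, which is best known from kidney, lung and colon, where it assembles with beta and gamma subunits, is cut by proteases such as furin, and is raised at the membrane by aldosterone and the kinase SGK1 and removed by the ubiquitin ligase NEDD4L.

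The deposited table states no genome build. It places Rps6ka2 (ENSMUSG00000023809) on the plus strand of chromosome 17 from 7437514 to 7570714, and Scnn1a (ENSMUSG00000030340) on the plus strand of chromosome 6 from 125297622 to 125321906. No other gene of the table overlapped either gene. The RefSeq promoters of the build GRCm38.p6 matched 1 of the 2 members, Rps6ka2, and the 250 bases before the start of the gene (chr17:7169865-7170114, plus strand) are shown as the sequence at the start of a gene whose level differed between the groups. Capitals mark the matches of CCAAT and GGGCGG on either strand.
Rps6ka2: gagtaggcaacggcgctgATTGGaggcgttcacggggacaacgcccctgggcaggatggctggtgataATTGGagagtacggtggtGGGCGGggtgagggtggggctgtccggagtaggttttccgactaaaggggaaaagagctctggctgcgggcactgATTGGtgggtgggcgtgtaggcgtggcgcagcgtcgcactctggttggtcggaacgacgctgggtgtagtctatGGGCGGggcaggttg
The window held 3 matches of CCAAT, all on the minus strand, and 2 of GGGCGG, both on the plus strand, and none of them overlapped another motif. A match of CCAAT was found in 33.8% of the 32851 promoter windows of the same length, and at least 3 matches in 2.79% of them. For GGGCGG the shares were 32.7% with a match and 16.7% with at least 2. The window held no match of TGANTCA, the AP-1 element (present in 6.75% of windows), or of GAGGAA, a core of PU.1 sites (present in 23.3%). Its GC content was 63.2%, against a median of 52.4% over all windows, and it held 19 CG dinucleotides, against a median of 6.

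The libraries held between 10292480 and 13787189 counts. Counts were scaled by edgeR's TMM method and are given as CPM, the counts of a gene relative to the scaled size of its library. Both members passed the filter on low counts. The test across genes was edgeR's quasi-likelihood F-test, and a gene was called where the Benjamini-Hochberg adjusted p over 14761 tested genes was below 0.05 and the fold change above 2, the thresholds of the study. Cd36, the gene of the sorted marker, was at 110, 263 and 238 CPM in CD36+ NK replicates 1 to 3 and at 14.3, 31.7 and 17.1 CPM in CD36- NK replicates 1 to 3, so every library titled CD36+ lay above every library titled CD36-. The names given to the sequencing libraries carry the sign of CD36 differently from the sample titles, and the titles were followed. The 10 NK cell markers summed to 1030 to 1198 CPM in CD36+ NK and 5438 to 7061 CPM in CD36- NK, and all 10 were called lower in CD36+ NK, against 2.98% of all tested genes. In the libraries titled CD36+ NK the summed NK cell markers lay below those of macrophages and of B cells. Sums over lists of different genes do not give the shares of these cell types. CD36+ NK replicate 1 stood apart in T cell markers. Cd3e, a chain of the T cell receptor complex, was at 27 CPM in that library and at 0.147 and 0.0831 CPM in replicates 2 and 3. The neutrophil marker S100a8 was highest in replicate 1 of both groups, at 824, 121 and 154 CPM in CD36+ NK and 620, 395 and 282 CPM in CD36- NK.

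Rps6ka2 was expressed in every library and was about 6 times as high in CD36+ NK as in CD36- NK. It had 288, 503 and 403 counts in CD36+ NK replicates 1 to 3, and 69, 60 and 48 counts in CD36- NK replicates 1 to 3. After scaling these were 25.6, 37.0 and 33.5 CPM in CD36+ NK and 5.30, 5.31 and 4.69 CPM in CD36- NK. The lowest CD36+ NK library was 4.83 times the highest CD36- NK library, and the 3 CD36- NK libraries lay within 1.13-fold of each other. Counting alone gives a relative error of 14.4% at the lowest of them, with 48 counts, so this closeness carries little weight. The mean was 32.0 ± 5.83 CPM (SD, n = 3) in CD36+ NK and 5.10 ± 0.356 CPM (SD, n = 3) in CD36- NK, which gave a log2 fold change of 2.65 ± 0.18 (SE), or 6.27-fold.

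Scnn1a showed the same picture at a slightly lower count. It had 225, 414 and 278 counts in CD36+ NK replicates 1 to 3, and 48, 48 and 23 counts in CD36- NK replicates 1 to 3. These were 20, 30.5 and 23.1 CPM in CD36+ NK and 3.69, 4.24 and 2.25 CPM in CD36- NK, and the groups did not overlap. The lowest CD36+ NK library was 4.72 times the highest CD36- NK library. The mean was 24.5 ± 5.36 CPM (SD, n = 3) in CD36+ NK and 3.39 ± 1.03 CPM (SD, n = 3) in CD36- NK, which gave a log2 fold change of 2.84 ± 0.27 (SE), or 7.18-fold. The lowest library, CD36- NK replicate 3, held 23 counts, for which counting alone gives a relative error of 20.9%.

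Of all tested genes, 0.881% had a log2 fold change at or above that of Rps6ka2 and 0.616% one at or above that of Scnn1a. All CD36+ NK libraries lay above all CD36- NK libraries in 17.0% of tested genes and below them in 15.7%, and 2.98% of tested genes were called higher in CD36+ NK. The number called higher was 440 with all libraries, 94 without CD36- NK replicate 1, 708 without CD36- NK replicate 2, and 221 when replicate numbers were blocked. These shares are given as background only, because the 2 genes were chosen on this comparison. The titles number the replicates, and the libraries of replicate 1 carry names of another form than the rest. Within replicate 1, the CD36+ NK library was 4.83 times the CD36- NK library for Rps6ka2 and 5.43 times for Scnn1a. Between the means of replicates 2 and 3 the ratios were 7.06 and 8.25. Without CD36+ NK replicate 1, the library highest in T cell markers, the log2 fold changes were 2.77 and 2.96.

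**Figure D1:**
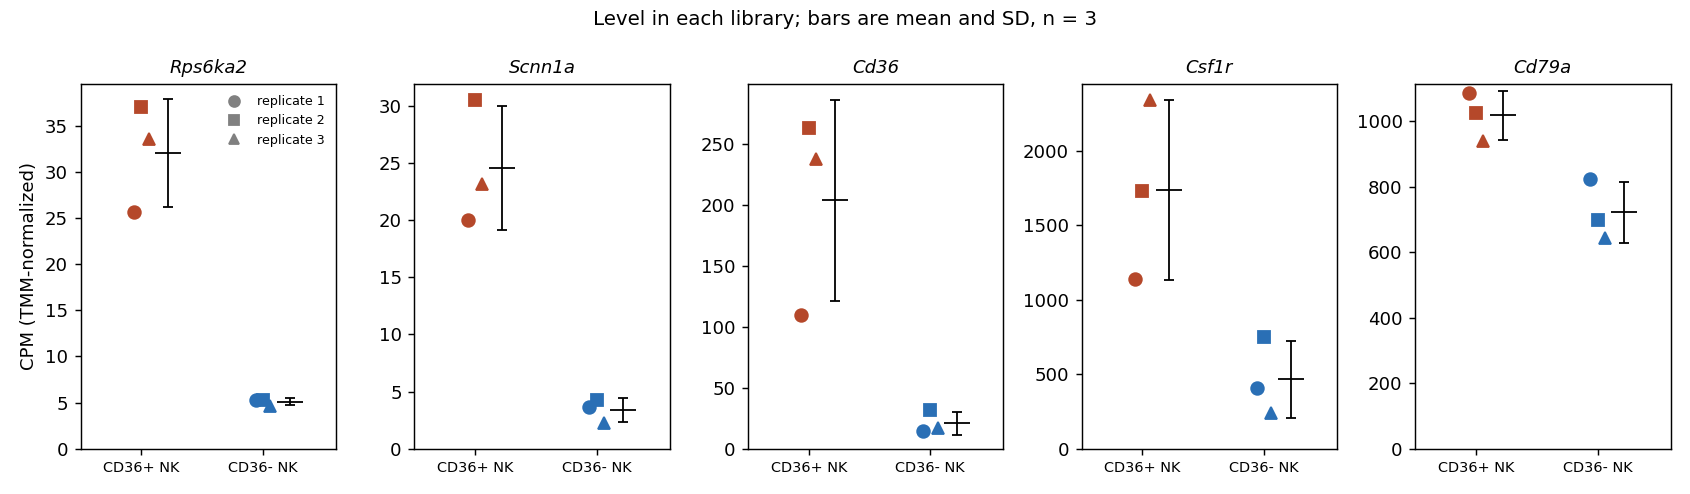
Each panel plots the level of a gene in CPM (TMM-normalized, linear axis from 0) in the 3 CD36+ NK libraries (red) and the 3 CD36- NK libraries (blue), with symbols for the replicate number and bars for the mean and SD. Rps6ka2 and Scnn1a are separated by a gap of more than 4.7-fold, Csf1r by 1.52-fold and Cd79a by 1.14-fold between the nearest libraries of the 2 groups.

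Per length, both genes were expressed at a low level. The FPKM of Rps6ka2 (fragments relative to gene length and library total, as deposited) was 2.45, 3.44 and 3.02 in CD36+ NK and 0.506, 0.516 and 0.440 in CD36- NK. The FPKM of Scnn1a was 1.83, 2.71 and 1.99 in CD36+ NK and 0.337, 0.395 and 0.202 in CD36- NK. By this measure Rps6ka2 was the higher of the pair in all 6 libraries. The order depends on the gene length used. The deposited values imply a length of 10593 bases for Rps6ka2 and 11082 bases for Scnn1a, whereas the union of exons in GENCODE M21 covers 9978 and 4132 bases. With the GENCODE M21 lengths, the level in CD36+ NK was 3.16 ± 0.531 FPKM for Rps6ka2 and 5.84 ± 1.26 FPKM for Scnn1a (SD, n = 3). Comparisons between the groups do not depend on this length.

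None of the 3 other tested kinases of the family was called, and with 5.96% of all tested genes called, 0 of 3 is near the background. Rps6ka1, the most expressed RSK gene here, was at 204 CPM in both groups, with a log2 fold change of 0.00 ± 0.081 (SE, adjusted p = 0.987 by edgeR). Rps6ka3, also an RSK gene, had a log2 fold change of -0.53 ± 0.36 (SE, adjusted p = 0.409 by edgeR), and Rps6ka5, which encodes the related kinase MSK1, one of -0.34 ± 0.18 (SE, adjusted p = 0.286 by edgeR). All of these overlapped between the groups. Rps6ka6 had 2 counts over the 6 libraries, and Rps6ka4 was not analysed here. Of the summed FPKM of the 5 genes, Rps6ka2 made up 6.25%, 8.42% and 6.87% in CD36+ NK and 1.20%, 1.05% and 1.13% in CD36- NK. Rps6ka1 made up 73.3% ± 5.12 and 71.9% ± 6.08 (SD, n = 3). These shares depend on the deposited gene lengths, which were not checked for the other kinases.

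The pathway of RSK was examined with 50 further genes, of which 45 were tested and 3 were called, 6.67% against 5.96% of all tested genes. The median log2 fold change over the 45 genes was -0.03, against 0.012 over all tested genes. Of the 13 tested genes that carry the signal to RSK, from the adaptor Grb2 and the RAS genes to Mapk3, which encodes an ERK kinase, none was called. Mapk3 was at 74.3 CPM in CD36+ NK and 86.0 CPM in CD36- NK. Map2k1, which encodes a MEK kinase, passed the adjusted p but not the fold, with a log2 fold change of 0.50 (edgeR adjusted p = 0.0470). Ksr1, which encodes a scaffold of the cascade, had a log2 fold change of -0.74 (edgeR adjusted p = 0.0434).

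Among the 11 tested feedback inhibitors of ERK signalling, Spry2 was called lower in CD36+ NK, against 2.98% of all tested genes. It was at 47.6, 37.5 and 39.9 CPM in CD36+ NK and 221, 126 and 304 CPM in CD36- NK, which gave a log2 fold change of -2.38 ± 0.31 (SE, adjusted p = 0.00592 by edgeR). Spred1, another inhibitor of the list, passed the adjusted p but not the fold, with a log2 fold change of 0.84 ± 0.18 (SE, adjusted p = 0.0311 by edgeR). Dusp6, an ERK phosphatase whose own gene is induced by ERK, had a log2 fold change of 0.54 ± 0.20 (SE, adjusted p = 0.138 by edgeR). Of the 18 tested genes of RSK substrates, Cebpb and Mitf were called higher, against 2.98% of all tested genes. Cebpb, which encodes a transcription factor of myeloid cells, was at 399, 574 and 504 CPM in CD36+ NK and 242, 211 and 159 CPM in CD36- NK (log2 fold change 1.27 ± 0.19 SE, adjusted p = 0.0100 by edgeR). Mitf, which encodes a transcription factor of melanocytes, mast cells and osteoclasts, was at 3.74, 10.7 and 18.7 CPM in CD36+ NK and 2.31, 2.12 and 1.56 CPM in CD36- NK (log2 fold change 2.46 ± 0.56 SE, adjusted p = 0.0373 by edgeR). The call of Mitf was lost when any library other than CD36+ NK replicate 1 was left out, with adjusted p between 0.0711 and 0.128 by edgeR. Eef2k, which encodes a kinase of translation elongation, passed the adjusted p but not the fold, with a log2 fold change of -0.89 ± 0.12 (SE, adjusted p = 0.00677 by edgeR). The other 15 substrates had log2 fold changes between -0.53 and 0.73 and were not called.

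The other subunits of the channel had few or no counts. Scnn1b, the beta subunit, had 0 counts in all 6 libraries, which allows a level of up to 0.221 to 0.293 CPM in a library (3 counts, counting error only). Scnn1g, the gamma subunit, had 1, 4 and 4 counts in CD36+ NK and 0, 1 and 0 counts in CD36- NK, too few to test. The related acid-sensing channel genes Asic1, Asic2 and Asic3 had 8, 2 and 9 counts over the 6 libraries, and Asic4 and Asic5 had 0. Scnn1a, with 1036 counts over the 6 libraries, was therefore the only member of its channel family with more than 10.

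These 7 channel genes, the genes that act on ENaC and other sodium transport genes numbered 44, of which 28 were tested, none of them a channel gene of the 7, and 3 were called, 10.7% against the 5.96% of all tested genes. The median log2 fold change over the 28 genes was 0.07. None of the 12 tested genes of hormonal and ubiquitin control was called. Nr3c1, the glucocorticoid receptor, had a log2 fold change of -0.20 (edgeR adjusted p = 0.686), Sgk1 one of 0.26 (edgeR adjusted p = 0.435) and Nedd4l one of 0.08 (edgeR adjusted p = 0.674). Nr3c2, the mineralocorticoid receptor through which aldosterone acts, was at 2.73 CPM in CD36+ NK and 1.95 CPM in CD36- NK (edgeR adjusted p = 0.621). Tsc22d3 and Per1, which glucocorticoids induce, had log2 fold changes of -0.07 and -0.26 (adjusted p = 0.804 and 0.711 by edgeR). Fkbp5, which they also induce, passed the adjusted p but not the fold, with a log2 fold change of -0.60 (edgeR adjusted p = 0.0462).

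Of the proteases that cut ENaC, St14, which encodes matriptase, was at 32.9 CPM in CD36+ NK and 20.8 CPM in CD36- NK and passed the adjusted p but not the fold (log2 fold change 0.66, adjusted p = 0.0346 by edgeR). Furin was at 99.5 and 102 CPM, and Prss8, the classical channel-activating protease of epithelia, had 0 counts in all libraries. Spint1, which encodes an inhibitor of such proteases, was called higher, at 4.63, 5.22 and 5.24 CPM in CD36+ NK and 1.84, 3.18 and 2.15 CPM in CD36- NK (log2 fold change 1.07 ± 0.26 SE, adjusted p = 0.0442 by edgeR). Slc12a2, which encodes the cotransporter NKCC1 of sodium, potassium and chloride, was called higher, at 97.6, 201 and 236 CPM in CD36+ NK and 20, 48.7 and 24.5 CPM in CD36- NK (log2 fold change 2.52 ± 0.43 SE, adjusted p = 0.0150 by edgeR). Atp1b1, which encodes a beta subunit of the sodium pump, was called lower, at 38.5, 40.3 and 34.0 CPM in CD36+ NK and 159, 143 and 183 CPM in CD36- NK (log2 fold change -2.10 ± 0.12 SE, adjusted p = 0.000428 by edgeR). Atp1b3, another beta subunit of the pump, and Slc12a7, a cotransporter of potassium and chloride, passed the adjusted p but not the fold, with log2 fold changes of -0.62 and -0.75 (adjusted p = 0.0117 and 0.0321 by edgeR). Leaving out CD36+ NK replicate 2 or 3, or CD36- NK replicate 1 or 3, lost the calls of Spint1 (adjusted p between 0.127 and 0.142 by edgeR) and Slc12a2 (0.0505 to 0.0673) and left Atp1b1 as the only called gene. Leaving out CD36+ NK replicate 1 lost Spint1 (adjusted p = 0.0638 by edgeR), and leaving out that library or CD36- NK replicate 2 called Slc8a1, which encodes an exchanger of sodium and calcium (log2 fold change 1.5, edgeR adjusted p = 0.0578 with all libraries).

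**Figure D2:**
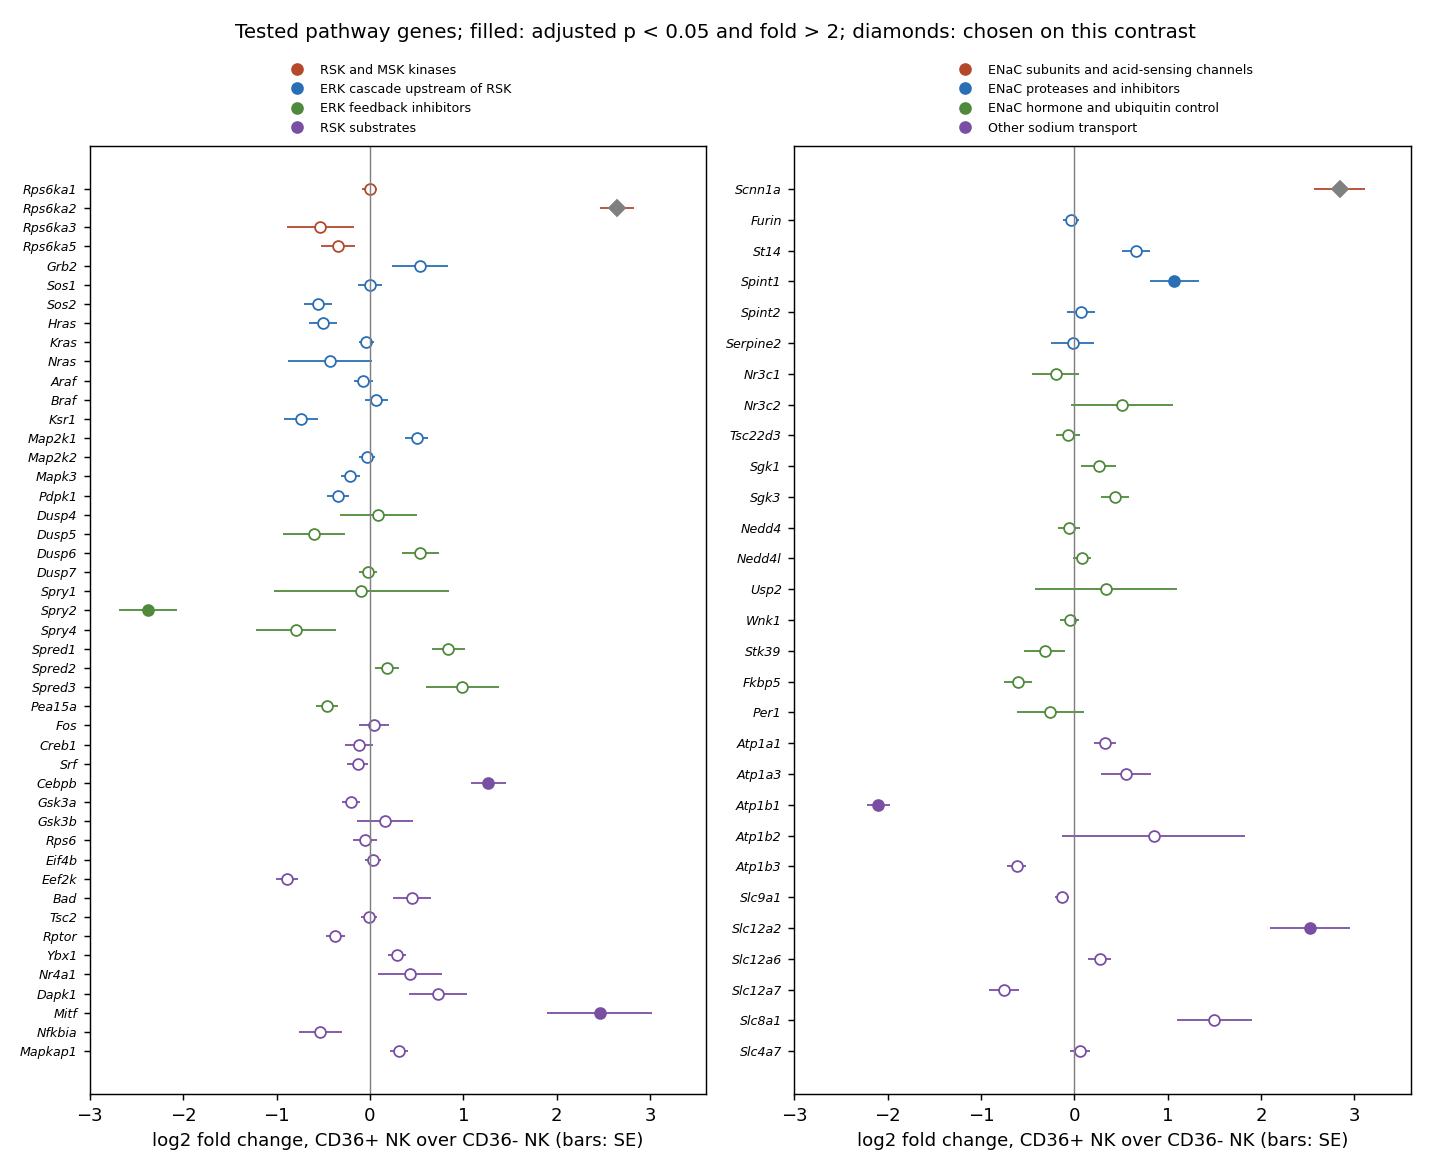
Log2 fold changes of the tested genes around RSK (left) and ENaC (right), CD36+ NK over CD36- NK, with standard errors as bars. Filled circles are called genes, open circles are genes not called, and the grey diamonds are Rps6ka2 and Scnn1a, at 2.65 and 2.84, which were chosen on this comparison.

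How the pair followed Csf1r and Cd79a was read from the libraries one by one. Csf1r encodes the receptor for the macrophage growth factor CSF1 and is expressed by monocytes and macrophages, and Cd79a encodes a signalling chain of the B cell receptor. Csf1r was at 1138, 1726 and 2342 CPM in CD36+ NK replicates 1 to 3 and at 411, 748 and 242 CPM in CD36- NK replicates 1 to 3, which gave a log2 fold change of 1.89 ± 0.44 (SE, adjusted p = 0.0378 by edgeR). Csf1r was no longer called without CD36+ NK replicate 2 or 3 or without CD36- NK replicate 1 or 3, at an adjusted p by edgeR of 0.101, 0.117, 0.125 and 0.0838, nor with the replicate number as a block (0.0727). Cd79a was at 1088, 1027 and 941 CPM in CD36+ NK and at 825, 700 and 644 CPM in CD36- NK, which gave a log2 fold change of 0.49 ± 0.12 (SE, adjusted p = 0.0457 by edgeR), which did not reach the fold threshold. Within CD36- NK, Rps6ka2, Scnn1a and Csf1r were all highest in replicate 2 and lowest in replicate 3, although Rps6ka2 was at 5.31 and 5.30 CPM in replicates 2 and 1. Within CD36+ NK, both members were highest in replicate 2, whereas Csf1r was highest in replicate 3. All 3 genes were lowest in replicate 1. Cd79a was highest in replicate 1 and lowest in replicate 3 in both groups, an order neither member had. With 3 libraries in a group such orders carry little weight.

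Relative to Csf1r, Rps6ka2 overlapped between the groups. Rps6ka2 had 22.5, 21.4 and 14.3 fragments per 1000 Csf1r fragments in CD36+ NK, and 12.9, 7.09 and 19.4 in CD36- NK. The means, 19.4 ± 4.47 and 13.1 ± 6.15 (SD, n = 3), were 1.48-fold apart, and CD36- NK replicate 3 lay inside the range of CD36+ NK. Scnn1a had 17.6, 17.7 and 9.87 fragments per 1000 Csf1r fragments in CD36+ NK and 8.99, 5.67 and 9.29 in CD36- NK. These groups did not overlap, but CD36+ NK replicate 3 and CD36- NK replicate 3 were close, at 9.87 and 9.29. The means were 15.0 ± 4.48 and 7.98 ± 2.01 (SD, n = 3), 1.88-fold apart.

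Relative to Cd79a, both members stayed far apart. Rps6ka2 had 23.6, 36.0 and 35.6 fragments per 1000 Cd79a fragments in CD36+ NK and 6.43, 7.58 and 7.28 in CD36- NK, 4.47-fold apart in the means. Scnn1a had 18.4, 29.7 and 24.6 in CD36+ NK and 4.47, 6.06 and 3.49 in CD36- NK, 5.18-fold apart in the means. Because the members were chosen for their difference between the groups, these ratios carry no test.

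**Figure D3:**
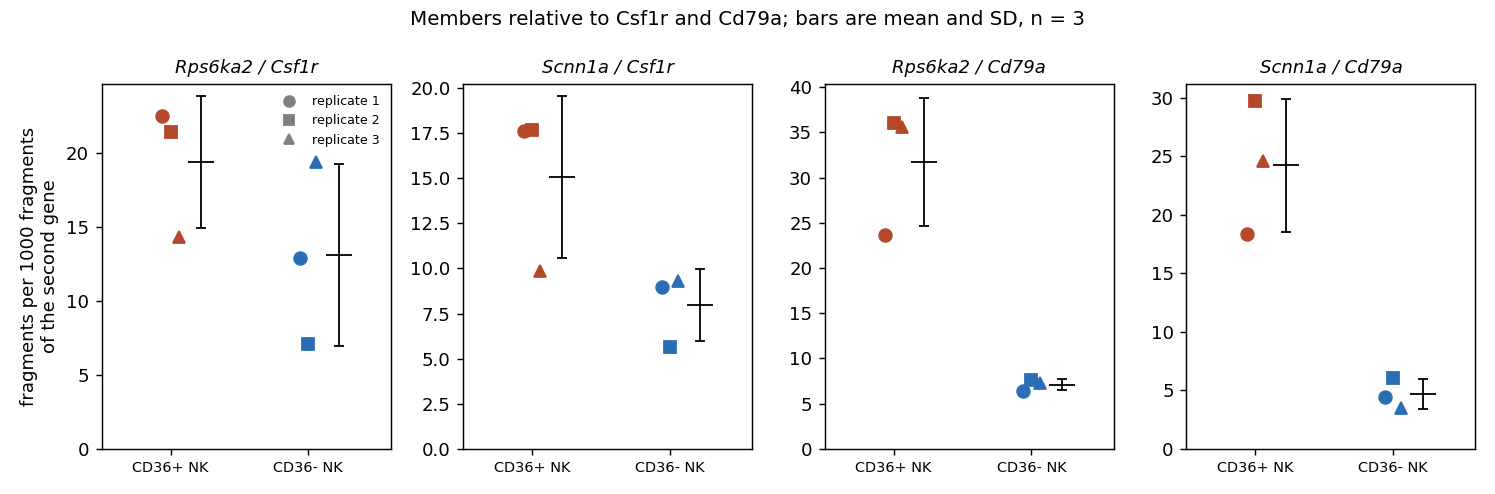
Fragments of Rps6ka2 and Scnn1a per 1000 fragments of Csf1r (left pair) or Cd79a (right pair) in each library, on linear axes from 0, with the mean and SD of 3 libraries as bars. The groups overlap for Rps6ka2 over Csf1r, nearly meet for Scnn1a over Csf1r (9.87 and 9.29), and are far apart over Cd79a.

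Likeness of pattern was measured as the SD over the 6 libraries of the log2 ratio between a member and another gene, so that 0 would be a constant ratio. A gene with the same level in every library would give the member's own SD, which was 1.456 for Rps6ka2 and 1.620 for Scnn1a. Rps6ka2 and Scnn1a had an SD of 0.289 with each other, and only 2 of 14219 genes were nearer to Rps6ka2 and only 3 nearer to Scnn1a. Csf1r had an SD of 0.627 with Rps6ka2 (rank 112 of 14219) and 0.632 with Scnn1a (rank 93). Cd79a had an SD of 1.194 with Rps6ka2 (rank 1701) and 1.347 with Scnn1a (rank 1775), farther than Csf1r but nearer than a gene of constant level. The likeness of the pair rested mainly on the shared difference between the groups. With the group means removed, the SD between Rps6ka2 and Scnn1a was 0.286, which placed Scnn1a at rank 7154 of 14219 for Rps6ka2 and Rps6ka2 at rank 736 for Scnn1a. With the group means removed, Csf1r ranked 12449 for Rps6ka2 (SD 0.575) and 6630 for Scnn1a (SD 0.443), and Cd79a was nearer than Csf1r to both, at rank 6033 (SD 0.262) and 3032 (SD 0.374). The nearness of Csf1r over the 6 libraries thus rested on the difference between the groups, on which the members were chosen. With the group means removed, Rps6ka2 varied by an SD of 0.207 and Scnn1a by 0.405, the values a gene of constant level would give. For Rps6ka2, Cd79a (0.262) was thus farther than such a gene, and for Scnn1a (0.374) only slightly nearer. The SD of the pair was 0.16 with a pseudocount of 2 CPM. Leaving out CD36- NK replicate 3 lowered it from 0.29 to 0.12, and leaving out CD36- NK replicate 2 lowered that of Rps6ka2 and Csf1r from 0.63 to 0.36.

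The 5 genes nearest to Rps6ka2 were Il1b, Phlda3, Scnn1a, Syn1 and Col4a2, with SDs from 0.249 to 0.327. Il1b, which encodes the cytokine interleukin 1 beta of activated myeloid cells, was at 153, 152 and 134 CPM in CD36+ NK and 24.5, 22.8 and 16.9 CPM in CD36- NK. The 5 genes nearest to Scnn1a were Fam20a, Il1b, Cd300ld, Rps6ka2 and Gm49101, with SDs from 0.244 to 0.296. Cd300ld, which encodes a CD300 receptor of myeloid cells, was at 106, 165 and 163 CPM in CD36+ NK and 17.5, 30.2 and 11 CPM in CD36- NK. Fam20a, which encodes a pseudokinase of the secretory pathway, was at 3.56, 5.52 and 3.57 CPM in CD36+ NK and 0.538, 0.884 and 0.293 CPM in CD36- NK, with the same order of libraries as Scnn1a except that CD36+ NK replicates 1 and 3 were level. Several of these nearest genes had few counts in CD36- NK replicates 1 to 3. Fam20a had 7, 10 and 3, Gm49101 5, 6 and 2, and Syn1 5, 3 and 4. Phlda3 had 8, 11 and 7, and Col4a2 12, 7 and 5. At such counts their nearness and the order of Fam20a carry little weight.

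Among 96 genes of the cell type marker lists, the 3 nearest to Rps6ka2 were Xcr1, Ace and Cd14 (SD 0.494, 0.519 and 0.570), and the 3 nearest to Scnn1a were Xcr1, Treml4 and Fcgr4 (SD 0.446, 0.455 and 0.507). Xcr1 marks cross-presenting dendritic cells, Cd14 encodes a lipopolysaccharide coreceptor of monocytes and macrophages, and Ace, Treml4 and Fcgr4 are known from patrolling monocytes. Other genes of the monocyte list differed from them. Cx3cr1 and Nr4a1, also known from patrolling monocytes, had log2 fold changes of 0.51 and 0.43 and were not called, and Ccr2, a chemokine receptor of classical monocytes, was called lower (log2 fold change -1.35, adjusted p = 0.00649 by edgeR). Treml4 was at 209 ± 62.6 CPM in CD36+ NK and 29.1 ± 20 CPM in CD36- NK (SD, n = 3, log2 fold change 2.84, edgeR adjusted p = 0.0145), and Fcgr4 at 161 ± 50.7 and 15.8 ± 9.74 CPM (log2 fold change 3.35, edgeR adjusted p = 0.00682). Both were picked for nearness to Scnn1a, itself chosen on this comparison. Their differences and adjusted p-values are therefore a description and not a test. Treml4 lost its call when replicate 2 of CD36+ NK or replicate 1 of CD36- NK was left out (adjusted p = 0.0545 and 0.063 by edgeR). Csf1r came after them at rank 6 of the 96 for Rps6ka2 and rank 7 for Scnn1a.

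**Figure D4:**
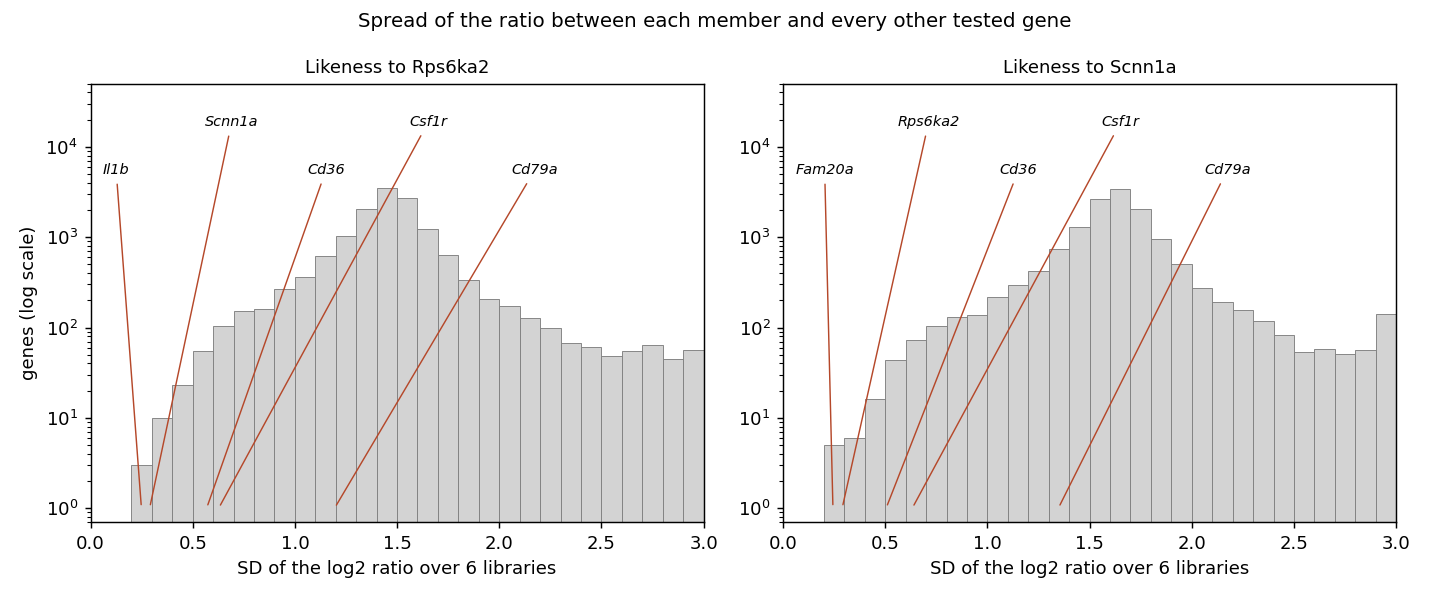
Number of genes (log axis) by the SD over the 6 libraries of the log2 ratio between the gene and Rps6ka2 (left) or Scnn1a (right), in bins of 0.1, with genes of 3 or more in the last bin. Lines point to the nearest gene, the other member, Cd36, Csf1r and Cd79a: the members lie at 0.289 from each other, Csf1r at 0.627 and 0.632, and Cd79a at 1.194 and 1.347.

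Both fractions held transcripts of cells other than NK cells. The 14 macrophage and Kupffer cell markers had sums from 6849 to 9715 CPM in CD36+ NK and from 2485 to 5884 CPM in CD36- NK, with 12 of 12 tested genes above 0 in log2 fold change, 5 of them called higher (against 2.98% of all tested genes) and a median of 2.84. Lyz2, which encodes a lysozyme, made up much of these sums and had a log2 fold change of 0.09, and the other 13 markers summed to 2543, 3911 and 6229 CPM in CD36+ NK and 639, 1554 and 432 CPM in CD36- NK, a sum added after the values were seen. No marker was at 0 in all 6 libraries, but Clec4f, a Kupffer cell lectin, had counts in CD36+ NK replicates 1 and 2 only, at 17 and 624. The 12 B cell markers summed to 6205 to 7026 CPM and 4223 to 4821 CPM, with 1 of 12 called higher (against 2.98% of all tested genes) and a median of 0.50. Of the 10 monocyte markers 4 were called higher and 1, Ccr2, lower (against 5.96% of all tested genes called either way), with sums of 2386 to 3195 and 1798 to 2252 CPM, and of the 9 markers of conventional dendritic cells 4, Xcr1, Clec9a, Itgae and Fscn1, were called higher, while Cd209a and Clec10a had log2 fold changes of -0.17 and -0.59 and were not called, with sums of 233 to 341 and 156 to 216 CPM. The 10 markers of bile duct and other epithelium summed to 34.4 to 47.4 CPM in CD36+ NK and 20.4 to 28.3 CPM in CD36- NK, with none of the 4 tested genes called and Sox9 at 0 counts. Much of these sums came from Spp1, at 28.5, 28.9 and 18.2 CPM in CD36+ NK and 6.61, 11.3 and 15.8 CPM in CD36- NK. The 8 erythroid markers had sums from 351 to 794 CPM and from 76.9 to 171 CPM, with 5 called higher (against 2.98% of all tested genes) and a median log2 fold change of 1.84. The 8 T cell markers had sums from 34.3 to 353 CPM and from 51.5 to 59 CPM, the highest in CD36+ NK replicate 1, and Cd4 and Cd8a were called higher (against 2.98% of all tested genes). Both lost their calls when CD36+ NK replicate 3 or any CD36- NK library was left out, with adjusted p from 0.0533 to 0.145 by edgeR. Of the 14 marker lists, 9 had every CD36+ NK sum above every CD36- NK sum. The NK cell list was the only 1 with every sum below. Of single tested genes, 17.0% lay wholly above and 15.7% wholly below. The 9 lists include the hepatocyte list, with sums of 1.83 to 10.4 and 0.0884 to 1.08 CPM and no gene tested. The part of cells other than NK cells in the levels of Rps6ka2 and Scnn1a was not tested. In sorted bulk samples more cells of a type and more RNA per cell cannot be told apart.

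Of the 7 tested genes within 100 kb of the pair, all near Scnn1a, 1 was called higher and 1 lower, against 5.96% of all tested genes called either way. Within 100 kb of Rps6ka2 the table holds 7 genes, Gm1604b, Gpr31a, Tcp10a, Ttll2, Gm49630, Unc93a2 and U1, and none had enough counts to be tested, the highest being Gpr31a with 13 counts over the 6 libraries. Within 100 kb of Scnn1a it holds 13 genes, of which 7 were tested. The nearest were Tnfrsf1a and Ltbr, which encode receptors of the TNF family and lie 4419 and 6774 bases away. Tnfrsf1a had a log2 fold change of 0.48 (edgeR adjusted p = 0.0501) and Ltbr one of 1.00 (edgeR adjusted p = 0.0755), and neither was called. Cd27, a TNF family receptor of lymphocytes, was called lower (log2 fold change -1.63, edgeR adjusted p = 0.0433), and the predicted gene Gm53066 was called higher (log2 fold change 1.48, edgeR adjusted p = 0.0398, 125 counts over the 6 libraries). Cd27 lost its call without any one library other than CD36+ NK replicate 1 (adjusted p between 0.0726 and 0.14 by edgeR), and Gm53066 without any one other than CD36+ NK replicate 1 and CD36- NK replicate 2 (0.128 to 0.136). Vamp1, Tapbpl and 4930417O13Rik had log2 fold changes of 0.04, -0.31 and 0.06 and were not called.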

How the data were processed

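RNA was sequenced from 3 CD36+ NK and 3 CD36- NK samples. The authors filtered reads with Seqtk, mapped them with HISAT2 (2.0.4, also in the submitters' processing notes) and used StringTie to count fragments for each gene. These raw counts were deposited with FPKM values, which the authors made by dividing them by gene length and library total. FPKM served only for levels per length. The processing notes name the rat build mRatBN7.2, while the table holds mouse genes, so its coordinates are given without a build. The broken lines of 2 genes were rejoined. Samples were grouped by title and columns matched by library name. The library names of CD36- NK replicates 2 and 3 resemble the titles of replicates 1 and 2, so replicate numbers within CD36- NK, and what rests on them (ratios, orders, block), depend on this matching, whereas the groups do not.

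Counts were analysed with edgeR 4.0.16 in R 4.3.3 (filterByExpr with a minimum count of 10, TMM, quasi-likelihood test, no block), after the script was tested on simulated data. Standard errors (SE) were taken from the fold change and the F statistic. Same-group libraries differed beyond counting noise (chi-square per degree of freedom 14.9 to 29.2). Likeness used genes with a mean of at least 1 CPM and a count in every library. Alternatives were a replicate block, upper-quartile and RLE scaling, other filters, DESeq2 1.42.0, a pseudocount of 2 CPM, deposited FPKM, each replicate left out, and, added after seeing the data, the form of library name as a block and another gene length. Some genes of the pathway lists are not reported here. The members, the 8 pathway lists and 14 marker lists were chosen with earlier results of these data known, and the promoter motifs after the sequence was seen. The genes named are the 2 members, Csf1r, Cd79a, Cd36, the RSK and ENaC families, up to 3 called genes per direction in each other pathway list, the 5 genes and 3 markers nearest in likeness, and genes within 100 kb; other genes named were picked after their values were seen.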

Additional observations from a re-analysis of the deposited data

How the results depend on the processing

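The log2 fold change of Rps6ka2 ran from 2.53 to 2.77 and that of Scnn1a from 2.62 to 3.03 over 13 alternatives each, 6 of which left out a library. The replicate block gave 2.63 and 2.85. Same-numbered libraries of the 2 groups had correlations of 0.367, 0.087 and -0.086 in their deviations from the group means (across genes, which are not independent replicates), so the numbers were not taken as pairs. Among the CD36+ NK libraries, replicate 1 alone correlated best with its own number, and the replicate 1 libraries also share a form of library name. Blocking on the replicate number gave 560 called genes in place of 880, and the SD of the log2 ratio between Rps6ka2 and Cd79a was 1.52 in place of 1.19. Leaving out a replicate gave between 417 and 1160 called genes in all, 2 to 3 around RSK and 1 to 4 around ENaC. The block also lost the calls of Csf1r, Mitf, Spint1, Cd27, Gm53066, Cd4 and Cd8a, and testing without a filter on low counts lost those of Spint1, Cd27, Gm53066, Cd4 and Cd8a (adjusted p by edgeR from 0.051 to 0.0657). The log2 ratio of Scnn1a to Rps6ka2 per length in CD36+ NK was -0.46 with the deposited FPKM and 0.88 with the GENCODE M21 exon lengths, a reversal that the length alone makes. With 23 to 69 counts in each CD36- NK library, the depth limits the precision of the members' lower levels, and Scnn1b and Scnn1g were too low to compare.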

Other observations

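Cd36, the gene of the sort, was also compared with the pair. Rps6ka2 had 234, 141 and 141 fragments per 1000 Cd36 fragments in CD36+ NK replicates 1 to 3 and 371, 167 and 274 in CD36- NK replicates 1 to 3, and Scnn1a had 183, 116 and 97.2 in CD36+ NK and 258, 134 and 131 in CD36- NK. Both sets of ratios overlapped between the groups. The SD of the log2 ratio to Cd36 was 0.568 for Rps6ka2 (rank 67 of 14219 genes) and 0.504 for Scnn1a (rank 29), against 0.627 and 0.632 for Csf1r. With the group means removed, Cd36 ranked 11906 for Rps6ka2 (SD 0.507) and 9692 for Scnn1a (SD 0.514), and for Scnn1a it was then farther than Csf1r (SD 0.443). Within CD36+ NK, Cd36 had the same order of libraries as both members, with replicate 1 lowest and replicate 2 highest, and within CD36- NK all 3 genes were highest in replicate 2, but Cd36 was lowest in replicate 1 and both members in replicate 3.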
